A study of Mus musculus with 4 samples.

Results

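Hormone-sensitive lipase (HSL, gene Lipe) and the lipases and cofactors that work beside it were followed in mouse soleus, a slow-twitch calf muscle. The genes were Lipe, Pnpla2, Mgll, Lpl, Abhd5, G0s2, Ces1d and Lipa. They were chosen by name for their role in triglyceride breakdown, with earlier results of these data known. All 8 had at least 1 probe set that the platform annotation assigns to a single gene, 11 probe sets in all of 12488 on the array, and they are 8 of the 8252 genes that the annotation names in this way. RNA was compared between wildtype and HSL-null mice on 2 arrays per genotype. By the labels, both arrays of a genotype are technical duplicates of 1 pool of soleus from 5 female mice, and all mice were 6 months old. The labels name no strain, no allele and no deleted part of Lipe, and no treatment. With 1 pool per genotype there was no biological replicate and no test, so the SDs and standard errors below measure the error of the arrays and not the spread between mice.

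Stored triglyceride is taken apart in steps, each with its own enzyme. Adipose triglyceride lipase (Pnpla2) removes the first fatty acid, HSL acts mainly on the diglyceride that results and also on cholesteryl esters, and monoglyceride lipase (Mgll) releases the last fatty acid and glycerol. Abhd5 activates adipose triglyceride lipase and G0s2 inhibits it. Lipoprotein lipase (Lpl) acts outside the cell, on triglyceride-rich lipoproteins at the capillary wall, the carboxylesterase Ces1d is a triglyceride hydrolase best known from liver and fat, and the acid lipase Lipa works in the lysosome.

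Lipe was lower in the HSL-null pool by about 4-fold and none of the other 7 genes was separated between the pools. A probe set is called separated here when each of the 4 pairs of an HSL-null and a wildtype array differed in one direction by at least 1.5-fold. It had to pass a filter first, a mean over the 4 arrays of at least 27.7, the median of all probe sets. Of the 11 lipase probe sets 9 passed that filter, for 7 of the 8 genes; Lipa and the second Mgll probe set did not. Of those 9 probe sets 1 was separated, against 0.451% of all 6208 probe sets above the filter. In the lower direction the count was 1 against 0.226%, and in the higher direction 0 against 0.226%. The separated probe set was that of Lipe, the targeted gene, so these shares do not describe the lipases as a group. The weaker condition of no overlap between the genotypes was met downward by 2 of the 9, against 21.1% of all probe sets, and upward by 4 of the 9, against 19.5%. With the arrays centred on their medians these background shares were 27.2% and 13.7%, and 1 of the 4 upward probe sets, the dimmer one of Lpl, then overlapped. Shares this large without a size condition mean that a lack of overlap alone says little about a lipase. The median log2 difference of the 7 genes above the filter, each at its brightest probe set, was 0.0090, beside -0.0022 over all probe sets. Without Lipe it was 0.053.

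**Figure D1:**
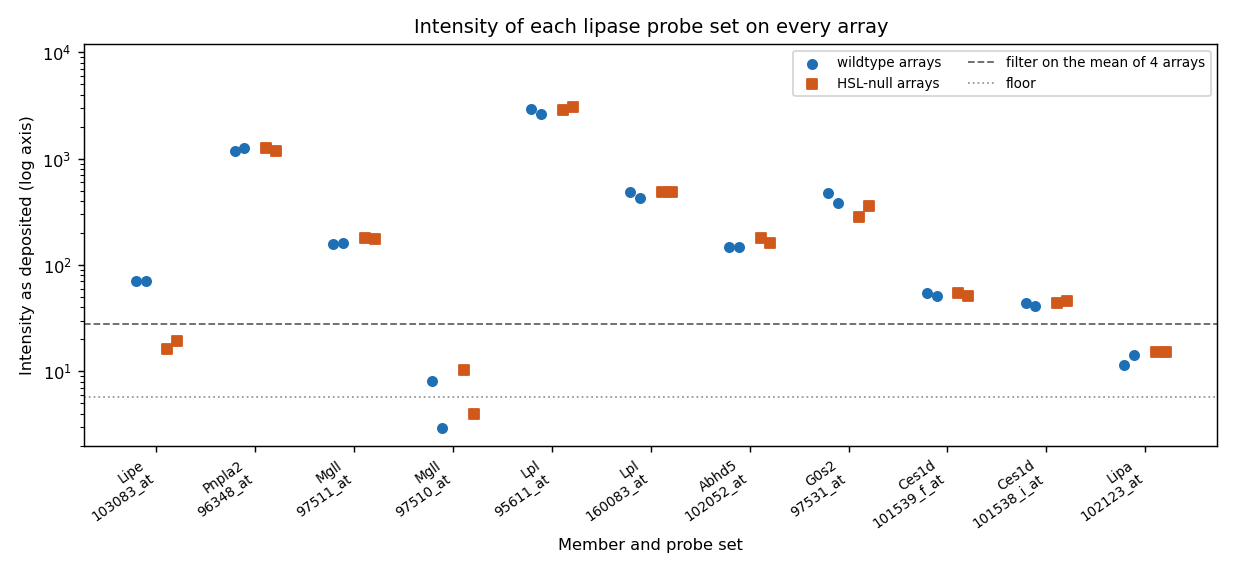
Intensity as deposited (log axis) of the 11 lipase probe sets on each of the 4 arrays, wildtype as circles and HSL-null as squares; the dashed line is the filter at 27.7 and the dotted line the floor at 5.7. The Lipe points of the HSL-null pool, at 16.2 and 19.4, lie apart from the wildtype points at 71.4 and 70.2, and on every other probe set the genotypes lie closer together or the duplicates spread widely.

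The targeted gene came first. Wildtype arrays gave Lipe an intensity of 71.4 and 70.2, HSL-null arrays 16.2 and 19.4. Both HSL-null values lay below both wildtype values, and the closest pair of arrays still differed by 3.62-fold. Wildtype averaged 70.8 ± 0.849 (SD, n = 2 arrays), HSL-null averaged 17.8 ± 2.26, a log2 difference of -2.00 ± 0.13 (SE of duplicates) or 3.99-fold lower. Of all 6208 probe sets above the filter, 2 had a lower difference than Lipe. Lipe passed the filter through its wildtype level, since the HSL-null mean of 17.8 lay below 27.7. The signal left in the HSL-null pool lay above the floor of 5.7, under which values were not ranked. The array has 1 Lipe probe set, and neither its position in the gene nor the part of Lipe that was disrupted is given in the sources used here. Whether the probe set lies in the disrupted part is therefore not known, and the remaining signal cannot be read as a remaining transcript.

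Because Lipe was the single lipase that was separated, the sequence before its starts is shown, beside that of Pnpla2, the enzyme of the step before it, whose level was alike in both pools. RefSeq (GRCm38.p6) lists 2 Lipe starts on the minus strand, and the array does not tell which one soleus uses. Each line gives the 250 bases before a start, 5′ to 3′ on the strand of the gene. Capitals mark GC boxes, GGGCGG or its reverse complement CCGCCC, a motif bound by Sp family factors, and E boxes of the form CACGTG, which reads the same on both strands and is bound by basic helix-loop-helix factors.
Lipe, upstream start, chr7:25395988-25396237: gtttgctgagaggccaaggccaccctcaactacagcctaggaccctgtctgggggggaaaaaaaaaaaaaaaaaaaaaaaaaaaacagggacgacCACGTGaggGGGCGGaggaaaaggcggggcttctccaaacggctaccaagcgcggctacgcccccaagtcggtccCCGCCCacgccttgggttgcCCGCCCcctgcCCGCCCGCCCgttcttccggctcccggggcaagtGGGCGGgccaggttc
Lipe, downstream start, chr7:25390113-25390362: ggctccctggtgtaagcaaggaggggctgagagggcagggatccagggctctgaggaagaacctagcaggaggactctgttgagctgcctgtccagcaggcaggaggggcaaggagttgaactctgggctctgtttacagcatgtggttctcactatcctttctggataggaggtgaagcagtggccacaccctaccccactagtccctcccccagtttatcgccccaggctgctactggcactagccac
Pnpla2, chr7:141454938-141455187, plus strand: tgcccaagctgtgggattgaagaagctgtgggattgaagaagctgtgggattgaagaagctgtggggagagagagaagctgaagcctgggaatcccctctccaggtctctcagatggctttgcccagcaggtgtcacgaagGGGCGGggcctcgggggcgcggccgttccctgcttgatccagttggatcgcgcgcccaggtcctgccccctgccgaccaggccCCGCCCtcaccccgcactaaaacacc
The window of the upstream Lipe start held 6 GC boxes, of which those beginning 49 and 45 bases before the start overlap, and 1 E box beginning 155 bases before it. The window of the downstream Lipe start held 0 of either motif, and that of Pnpla2 held 2 GC boxes and 0 E boxes. Among 32851 windows of this length in the same table, 32.7% held a GC box and 6.02% a CACGTG E box. Windows were found for 6 of the 8 genes, not for Lpl and Ces1d, and 5 of their 8 windows held a GC box. A match is a description of these letters and not a binding site.

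Adipose triglyceride lipase was level between the pools, its activator slightly higher and its inhibitor lower in HSL-null. Pnpla2 measured 1184.6 and 1250.5 in wildtype and 1254.0 and 1177.7 in HSL-null. The 2 genotypes interleave, with the highest and the lowest of the 4 values both from the HSL-null pool. The log2 difference was -0.0022 ± 0.060 (SE of duplicates), and the 4 array pairs ranged from -0.087 to 0.082.

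Abhd5, the activator also known as CGI-58, measured 147.3 and 148.0 in wildtype and 178.5 and 161.2 in HSL-null. Both HSL-null arrays were above both wildtype arrays, by 1.09-fold in the closest pair. The log2 difference was 0.20 ± 0.074 (1.15-fold), the largest upward among the lipase probe sets above the filter, and 23.3% of all probe sets had a larger absolute difference.

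G0s2, the inhibitor, was lower in HSL-null without reaching the size condition. It measured 474.7 and 380.1 in wildtype and 285.6 and 358.8 in HSL-null. The groups did not overlap, but the duplicates of each pool lay nearly as far apart as the pools, and the closest pair differed by 1.06-fold. The log2 difference was -0.41 ± 0.23 (1.33-fold lower), with 4.85% of all probe sets showing a larger absolute difference. Leaving out the HSL-null array 1 gave -0.24 and leaving out HSL-null array 2 gave -0.57.

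A ratio of 2 probe sets on the same array does not depend on a single scaling factor per array, although scalings that vary with intensity, such as quantile normalization, can still change it. The ratio of Abhd5 to G0s2 signal, a pair picked after the values were seen, was 0.31 and 0.389 in wildtype, against 0.625 and 0.449 in HSL-null. It was higher in HSL-null on all 4 pairs, 1.15-fold in the closest and 1.52-fold on average, which is a log2 difference of 0.61 ± 0.29. The ratio of Abhd5 to Pnpla2 was 0.124 and 0.118 in wildtype and 0.142 and 0.137 in HSL-null, 1.15-fold higher on average. The ratio of Pnpla2 to G0s2 overlapped, at 2.5 and 3.29 in wildtype and 4.39 and 3.28 in HSL-null. These ratios show unequal differences of the probe sets named and do not compare the amounts of their transcripts.

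Mgll, which completes the breakdown, was slightly higher in the HSL-null pool on its brighter probe set. That probe set measured 159.2 and 161.4 in wildtype and 177.8 and 174.0 in HSL-null. The duplicates were close and the groups did not overlap, with a log2 difference of 0.13 ± 0.018 (1.10-fold higher) and 1.08-fold in the closest pair. The difference was 0.10 with median centring and 0.16 with quantile normalization, a shift by scaling that exceeds the standard error of the duplicates. The second probe set lay below the filter, at 8.1 and 2.9 in wildtype and 10.4 and 4.0 in HSL-null. Of these 4 values 2 were below the floor, and the probe set gives no direction.

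Set against its partners on the same array, Lipe was lower in HSL-null whichever partner was the reference. This follows from the size of the Lipe difference and is no further support, since no other lipase above the filter differed by more than 0.41. The ratio of Lipe to Pnpla2 signal was 0.0603 and 0.0561 in wildtype and 0.0129 and 0.0165 in HSL-null, 3.99-fold lower. Against Mgll the ratio was 4.38-fold lower and against Lpl 4.27-fold lower. Against G0s2, itself lower in HSL-null, it was 3.01-fold lower.

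Lpl was nearly level between the pools on both of its probe sets. The brighter one measured 2904.7 and 2616.9 in wildtype and 2853.1 and 3049.5 in HSL-null. The groups overlapped, with a log2 difference of 0.097 ± 0.089. The dimmer one measured 483.6 and 430.7 in wildtype and 485.1 and 485.6 in HSL-null. Wildtype array 1 lay just under both HSL-null arrays, and the log2 difference of 0.089 ± 0.084 was close to that of the brighter probe set. On both probe sets wildtype array 2 was the low one, and the difference without it fell to 0.022 and 0.0052.

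Ces1d and Lipa were not separated either. Of the 2 Ces1d probe sets the brighter has a suffix (_f) that marks probes shared with related sequences, so other carboxylesterases may contribute to it. The suffix of the dimmer (_i) does not mark shared probes, and whether other genes contribute to it is not known. The first measured 54.0 and 51.3 in wildtype and 55.0 and 51.0 in HSL-null and overlapped, at a log2 difference of 0.0090 ± 0.066. The second measured 44.3 and 41.6 in wildtype and 44.4 and 46.3 in HSL-null, at 0.079 ± 0.055, with the closest pair 1.00-fold apart. Of 5 hepatocyte markers on the array 0 passed the filter, with a summed intensity of 22.8 and 30.2 in wildtype and 31.3 and 20.2 in HSL-null. Lipa, below the filter, measured 11.5 and 14.2 in wildtype and 15.3 and 15.1 in HSL-null, all above the floor. Its log2 difference was 0.25 ± 0.15, and the lack of overlap was lost with quantile normalization and with cyclic loess. Of 7 macrophage markers above the filter 0 were separated, and their summed intensity with the 3 below it was 672 and 702 in wildtype and 675 and 698 in HSL-null.

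Ordered by log2 difference, the 9 lipase probe sets above the filter ran from Lipe (-2.00) over G0s2 (-0.41) and Pnpla2 (-0.0022) to both Ces1d, both Lpl, Mgll and Abhd5 (0.20). The gap from Lipe to G0s2 was 1.59 with a combined standard error of 0.26, and that from G0s2 to Pnpla2 was 0.41 with 0.24. The other 6 gaps between neighbours were smaller than their combined standard errors, which take the 2 probe sets as independent. On the same array the ratio of Abhd5 to Mgll, neighbours in that stretch, was higher in HSL-null on all 4 pairs. It was 1.00-fold higher in the closest pair, at a log2 difference of 0.066 ± 0.058. Ratios of genes further apart in it, picked after the values were seen, overlapped in some cases and not in others. That of Pnpla2 to Mgll on the same array was lower in HSL-null on all 4 pairs (-0.14 ± 0.042). So were those of Ces1d to Abhd5 (-0.19 ± 0.045) and of Ces1d to Mgll (-0.12 ± 0.061). That of Abhd5 to Pnpla2 was higher on all 4 pairs (0.20 ± 0.045). Those of Lpl to Pnpla2 (0.10 ± 0.15) and of Abhd5 to Lpl (0.10 ± 0.14) overlapped. Of all single probe sets 21.1% lay below wildtype on all pairs and 19.5% above, so a lack of overlap alone says little here too. Lipe lay far outside the central 95% of all probe sets, which ran from -0.40 to 0.41, and G0s2 at its lower edge. The SD of the log2 difference between duplicate arrays over all probe sets above the filter was 0.26 for the wildtype pool and 0.25 for the HSL-null pool.

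**Figure D2:**
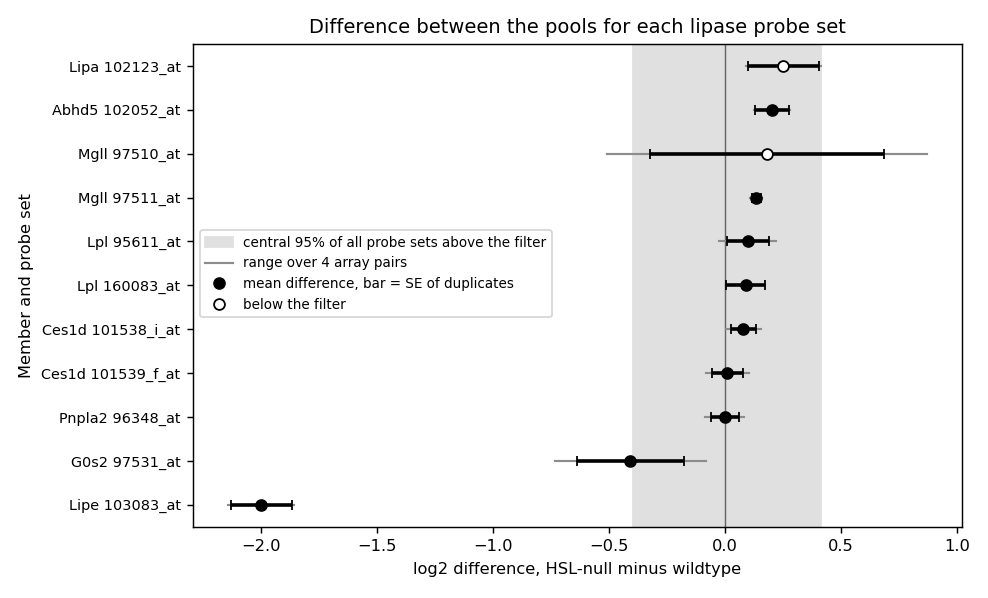
log2 difference (HSL-null minus wildtype) of each lipase probe set, with the standard error of the duplicates as a thick bar, the range over the 4 array pairs as a thin line, and the central 95% of all probe sets above the filter (-0.40 to 0.41) shaded; open points lie below the filter. Lipe at -2.00 stands alone, G0s2 at -0.41 reaches the edge of the shaded band, and the others lie between -0.0022 and 0.25.

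**Figure D3:**
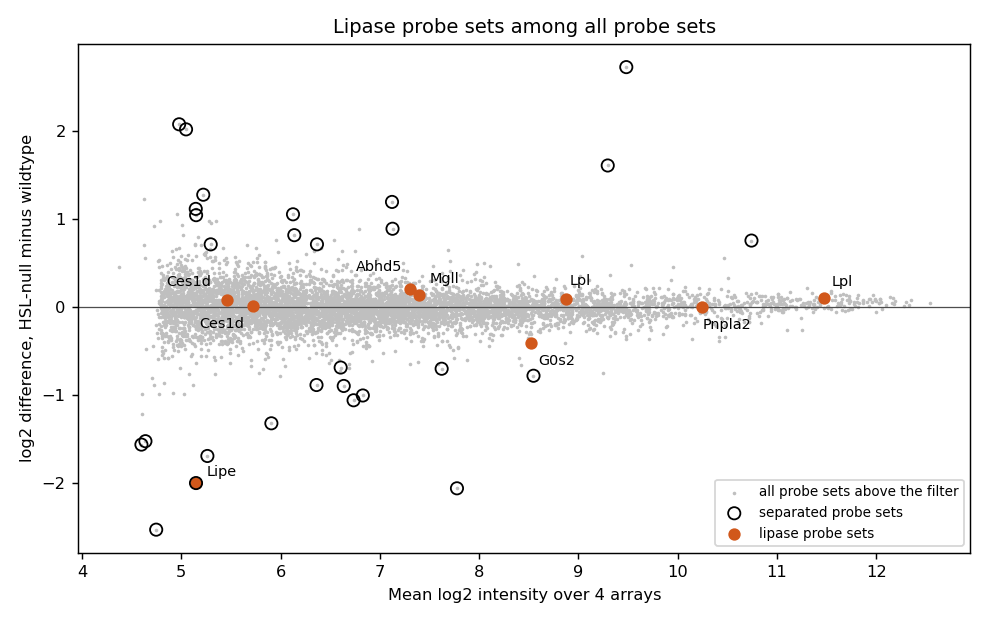
log2 difference against mean log2 intensity over the 4 arrays for the 6208 probe sets above the filter (grey), the 28 separated ones (rings) and the 9 lipase probe sets (filled). The lipase probe sets cover most of the intensity range, and Lipe, at the dim end, is the single one of them that also carries a ring.

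The wider machinery around these lipases was described with 6 lists of their regulators, partners and products, 119 genes in all. Of these genes 72 had a probe set and 52 passed the filter, and 0 were separated in either direction. Without a size condition 15 lay above wildtype on all 4 pairs, 10 below and 27 overlapped, against 19.5% above and 21.1% below over all probe sets. Their median log2 difference was 0.031 and they ranged from -0.38 to 0.36.

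Droplet proteins that gate the lipases had 5 genes above the filter and a median of 0.066, which was -0.034 without wildtype array 2. The largest differences were those of Fabp4, a fatty acid carrier of adipocytes that binds HSL, and Plin2, a droplet coat protein. Fabp4 measured 81.6 and 78.2 in wildtype and 76.0 and 65.7 in HSL-null, lower on every pair, at -0.18 ± 0.11. Plin2 measured 136.7 and 124.0 in wildtype and 120.8 and 163.1 in HSL-null, with overlap, at 0.11 ± 0.23.

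HSL is switched on by cyclic AMP through protein kinase A, and the 12 genes of that route above the filter had a median of 0.037, which was 0.0033 with median centring and, leaving out one array, 0.076 (wildtype array 2) or 0.068 (HSL-null array 2). Of these genes 4 lay above wildtype on all pairs and 2 below, against 19.5% and 21.1% of all probe sets. Pde4b, a cyclic AMP phosphodiesterase, showed 68.6 and 52.6 in wildtype and 68.6 and 84.2 in HSL-null, a difference of 0.34 ± 0.24. Adcy2, an adenylyl cyclase, showed 330.5 and 344.1 in wildtype and 327.6 and 248.6 in HSL-null, a difference of -0.24 ± 0.20 that came mostly from HSL-null array 2.

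Genes that mature, anchor or restrain lipoprotein lipase had a median of -0.017 over 11 genes. It was 0.011 without wildtype array 2, -0.067 without wildtype array 1 and -0.051 with median centring. Apoe, the apolipoprotein E of lipoprotein particles, was the lowest of them, at 222.2 and 227.0 in wildtype and 186.4 and 159.9 in HSL-null, a difference of -0.38 ± 0.11 with no overlap. Angptl4, a secreted inhibitor of lipoprotein lipase, was the highest on its brightest probe set, at 35.5 and 37.9 in wildtype and 41.1 and 51.0 in HSL-null, a difference of 0.32 ± 0.16. Its 3 other probe sets lay below the filter, and one of them pointed the other way, at -0.61 ± 1.34.

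Of 13 other lipases and carboxylesterases on the array 3 passed the filter. Daglb, a diacylglycerol lipase, which like HSL cleaves diglyceride but serves lipid signalling, measured 38.2 and 39.1 in wildtype and 46.4 and 53.2 in HSL-null. That is 1.29-fold higher with no overlap, at 0.36 ± 0.10, and 6.85% of all probe sets had a larger absolute difference. Cel, the bile salt-dependent lipase of pancreas, read 44.0 and 43.9 in wildtype and 40.8 and 39.7 in HSL-null, at -0.13 ± 0.020.

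Lysosomal genes around Lipa had a median of 0.028 over 13 genes, whose sign turned with median centring (-0.0053) and quantile normalization (-0.019). Tfeb, a transcription factor of lysosomal genes, measured 46.4 and 38.0 in wildtype and 56.1 and 47.1 in HSL-null, at 0.29 ± 0.19. Lamp2, a lysosomal membrane protein, measured 466.9 and 429.2 in wildtype and 382.1 and 404.7 in HSL-null, at -0.19 ± 0.074. On these probe sets neither pair of groups overlapped, and the 2 genes lay on opposite sides of 0. Another Lamp2 probe set above the filter overlapped, at -0.13 ± 0.14.

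Genes of glycerol and fatty acyl-CoA handling after lipolysis had a median of 0.055 over 8 genes. The median was 0.022 with median centring, 0.014 with quantile normalization and 0.024 with cyclic loess. Without wildtype array 1 it was 0.030, without HSL-null array 2 0.078, and with the filter at the 75th percentile 0.099. Pdk4, a kinase that turns muscle from glucose to fatty acid use, measured 2198.3 and 2031.4 in wildtype and 2382.9 and 2392.9 in HSL-null, at 0.18 ± 0.057. Gpd1, the glycerol-3-phosphate dehydrogenase of the cytosol, measured 156.3 and 160.0 in wildtype and 187.7 and 161.4 in HSL-null, at 0.14 ± 0.11. Both lay above wildtype on every pair.

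**Figure D4:**
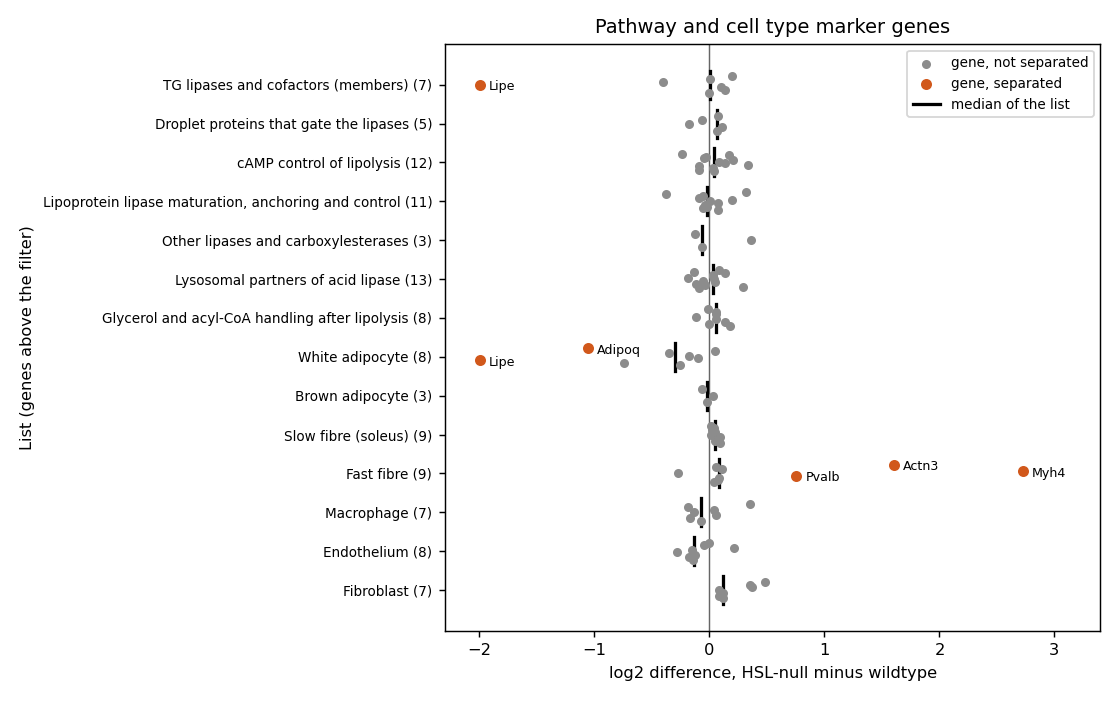
log2 difference (HSL-null minus wildtype) of each gene above the filter, at its brightest probe set, by list, with the number of genes in brackets and the median as a black bar. In the pathway lists Lipe is the single separated gene, and among the marker lists white adipocyte genes lie mostly below 0 with a median of -0.30.

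Soleus markers were checked in the same arrays. All 9 slow fibre markers passed the filter and 0 were separated, with Tnnt1 (slow troponin T) at 6088.5 and 5645.9 in wildtype and 6183.1 and 5940.0 in HSL-null, the highest intensity on each array, and Myh7 (slow myosin heavy chain) at a difference of 0.024 ± 0.068. Of 9 fast fibre markers above the filter 3 were separated higher in HSL-null, against 0.226% of all probe sets. They were Myh4 (2.72 ± 0.046), Actn3 (1.61 ± 0.10) and Pvalb (0.75 ± 0.039), the myosin, actinin and calcium buffer of fast fibres. The other 6 were not separated, and the list had a median of 0.083 and a lowest difference of -0.27. The list was chosen with earlier results of these data known, so the contrast with 0.226% is a description only. A second Myh4 probe set, close to the filter, overlapped (0.15 ± 0.15). Second probe sets of Actn3 (0.89 ± 0.20) and Pvalb (1.19 ± 0.072), both with the _f suffix, were separated higher. A second Tnnt1 probe set lay below wildtype on all pairs (-0.060 ± 0.042), and the Myh7 probe set given above has the _f suffix too. The 3′ to 5′ signal ratio of the beta-actin control, a sign of RNA quality, was 0.688 and 0.706 in wildtype and 0.816 and 0.823 in HSL-null. For Gapdh it was 0.955 and 0.927 in wildtype and 0.922 and 0.912 in HSL-null. The part of fibre markers and RNA quality in the lipase values was not tested.

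White adipocyte markers, of which Lipe is itself one, lay mostly below wildtype in the HSL-null pool. Of 13 markers 11 had a probe set and 8 passed the filter, of which 2, Lipe and Adipoq, were separated lower and 0 higher. Below wildtype on all 4 pairs were 6 of the 8, Lipe among them, against 21.1% of all probe sets (27.2% with median centring), and the median was -0.30, or -0.25 without Lipe, a value added after the data were seen. The marker lists were chosen with earlier results of these data known, so contrasts with the shares over all probe sets are descriptions only. Adipoq, the adipocyte hormone adiponectin, measured 150.2 and 157.2 in wildtype and 73.5 and 74.1 in HSL-null, 2.08-fold lower (-1.06 ± 0.033). The summed intensity of the 11 was 5147 and 4931 in wildtype and 4799 and 4468 in HSL-null, most of it from Car3, which muscle also expresses. Of the defining adipocyte genes, Pparg (8.8 to 17.3), Retn (2.5 to 19.6) and Cidec (0.4 to 4.5) lay below the filter in both pools. Lep, the adipocyte hormone leptin, passed it and overlapped, at 126.7 and 99.2 in wildtype and 96.7 and 112.8 in HSL-null (-0.10 ± 0.21). The difference of Lipe, -2.00, was larger than that of any other adipocyte marker above the filter, of which Adipoq at -1.06 and Scd1 at -0.74 came next. In a pool of whole muscle, fewer adipocytes and less RNA per adipocyte cannot be told apart, and the part of adipocyte content in the Lipe difference was not tested. Of 8 endothelial markers above the filter, where lipoprotein lipase acts, 0 were separated, with a median of -0.13 (-0.060 without wildtype array 2). The 2 brightest, Eng (-0.047 ± 0.081) and Cdh5 (-0.0066 ± 0.059), overlapped, Pecam1 (-0.28 ± 0.12) and Vwf (-0.14 ± 0.065) lay below wildtype on all pairs, and Flt1 (0.21 ± 0.091) lay above. Brown adipocyte markers gave 0 separated of 3, with Cox8b at -0.024 ± 0.099 and Cox7a1 at 0.034 ± 0.047, both of which muscle also expresses. The thermogenic marker Ucp1, at 6.3 and 6.0 in wildtype and 10 and 7.1 in HSL-null, lay below the filter, as did Elovl3 (1.9 to 3.6). The 2 brightest macrophage markers, C1qc (0.036 ± 0.21) and Lyz2 (-0.075 ± 0.059), overlapped, while C1qa had the largest difference of that list (0.35 ± 0.17) and was the single one above wildtype on all pairs. Fibroblast markers gave 0 separated of 7, with 6 above wildtype on all pairs, against 19.5% of all probe sets (13.7% with median centring), among them Col1a1 (0.48 ± 0.050) and Dcn (0.079 ± 0.020).

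The genes nearest to the pattern of Lipe over the 4 arrays were all lower in HSL-null. Nearness was the Euclidean distance between log2 values centred on each probe set's mean, over named genes above the filter, so that 4 arrays of 2 pools define the pattern and most of it is the size of the difference. In order of distance these were Ccne1 (cyclin E1, distance 0.46), Cdo1 (cysteine dioxygenase, 0.55), Gdpd3 (0.80), Hic1 (a transcriptional repressor, 0.82), Adipoq (0.96), Rbm4b (an RNA-binding protein, 0.96), Fasn (fatty acid synthase, 1.04) and Pam (a peptide-amidating enzyme, 1.11). Ccne1 measured 44.2 and 39.1 in wildtype and 13.5 and 14.7 in HSL-null. Cdo1 measured 43.4 and 41.0 in wildtype and 15.4 and 14.0 in HSL-null. As with Lipe, both duplicates of each of these 2 genes were close and their HSL-null means fell below the filter. The HSL-null means of Hic1 (22.1) and Rbm4b (12.5) also fell below it, with HSL-null duplicates further apart (27.8 and 16.4, 6.9 and 18.1). G0s2, the next lowest of the lipases, differed by -0.41.

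**Figure D5:**
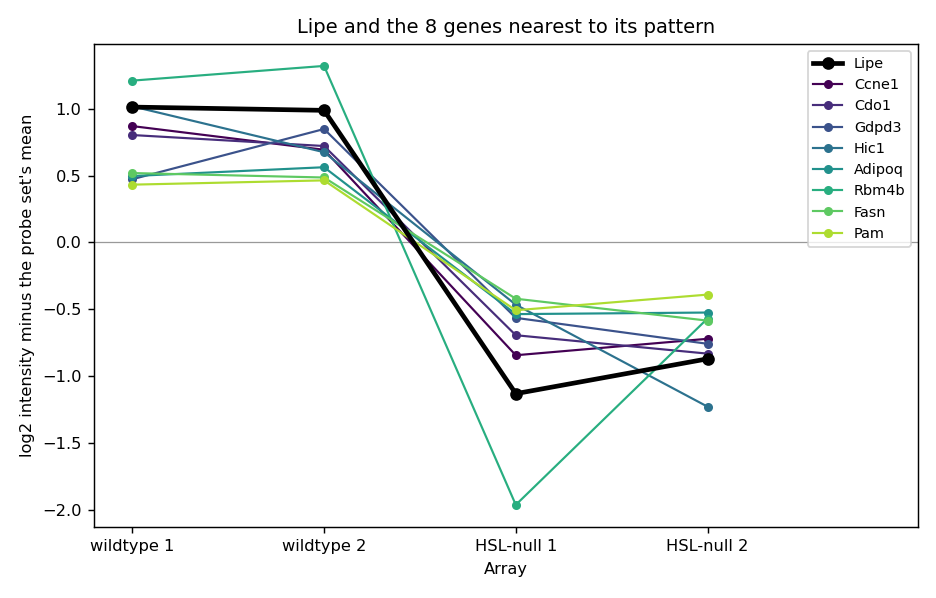
log2 intensity of Lipe (black) and of the 8 named genes nearest to it, each minus its probe set's mean over the 4 arrays; lines join the arrays only to guide the eye. Every profile is higher on both wildtype arrays than on both HSL-null arrays, and Ccne1 at a distance of 0.46 follows Lipe most closely, while Rbm4b shows wide HSL-null duplicates.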

How the data were processed

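Soleus RNA was measured on 4 arrays, 2 per genotype. The authors deposited 1 linear intensity per probe set and array; the values show a mean of 100 on every array with 2% trimmed from each end, and of the scaling, background step and software nothing is stated in the labels. Values were used as deposited, raised to a floor of 5.7 (percentile 25 of all values) and put on the log2 scale. Without the 66 control probe sets, those with a mean of at least 27.7 were kept (6208 probe sets). The number of arrays limits the precision.

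Probe sets were named by the platform annotation (10855 with 1 symbol, 396 with several, 1237 not listed), and 10839 symbols were matched by gene ID to RefSeq (GRCm38.p6). The files name no build, so gene coordinates are not given; those printed belong to the RefSeq promoter table.

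No p-value was computed, because each genotype is 1 pool. The call rule was tested on simulated data with noise sized from the duplicate arrays. That noise holds no spread between pools or mice, so the simulation does not cover differences between pools without a genotype effect. The genes and lists were chosen with earlier results of these data known. Named genes were every lipase, the separated genes of a list or else the 2 with the largest difference (pathway) or the brightest (markers), and the 8 nearest to Lipe; Scd1, Pparg, Retn, Cidec, Car3, Lep, C1qa, Pecam1, Vwf, Flt1, Ucp1 and Elovl3 were named after their values were seen. Alternatives were 4 other scalings (limma 3.58.1 in R 4.3.3 for quantile and cyclic loess, with 0 set to 0.1), the floor, the filter, the fold, each array left out and the replicate number as a block. Other work used Python 3.11.15, numpy 2.4.6, pandas 2.3.3 and matplotlib 3.10.9.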

Additional observations from a re-analysis of the deposited data

How the results depend on the processing

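Lipe remained the single separated lipase probe set under each alternative except the filter at the 75th percentile, which Lipe itself does not pass and which left 0 separated probe sets and 0 separated genes among the lipases. Its log2 difference lay between -2.13 and -1.87 over all alternatives. Over all probe sets 28 were separated, against 176 without a filter, 10 with the filter at the 75th percentile, 95 at 1.3-fold and 14 at 2-fold. With 1 array left out, which leaves 2 pairs instead of 4, the count ran from 82 to 109. The median log2 difference of the lipases, 0.0090 as reported, was 0.097 with the filter at the 75th percentile and ran from -0.045 to 0.049 with 1 array left out, so that it has no settled sign. With the replicate number as a block, where the 2 same-numbered pairs replace the 4, 1 lipase probe set was separated; the numbers name duplicate arrays, whose deviations correlated at -0.086 between genotypes, and were not taken as pairs. G0s2 and Abhd5 kept their directions under all 11 alternatives. So did Lipe, Lipa, both Lpl probe sets, the brighter Mgll and the dimmer Ces1d probe set, so this does not set G0s2 and Abhd5 apart. Where the genotypes do not overlap, leaving out an array cannot turn the sign. No detection or background values were used, and differences under 1.5-fold in dim probe sets such as Lipa and Ces1d are near the error of the arrays.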
